A study of Mus musculus with 48 samples.

Results

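A set of 2244 genomic regions was more accessible after 8 h Activin and in untreated P19 cells than in cells held in the inhibitor SB-431542. After 1 h Activin these regions stayed below the limit set for that state. These late-high regions were selected on their measured values. The peak lists of the 4 signalling states were joined into regions wherever peaks shared 1 bp or more, and 162505 of the 287329 merged regions held a peak in every list. For each of these shared regions the highest fold enrichment in a list was divided by the median over all shared regions, and L is the log2 ratio of this scaled value to that with SB-431542. A region was included if L was below 0.2 at 1 h, at least 0.5 at 8 h and at least 0.35 in untreated cells, which 1.38% of the shared regions met. Since all 4 lists entered this choice, the accessibility values of the late-high regions are a description, and no test is attached to them. Their position, the genes around them and the sequence motifs in them did not enter it.

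NODAL and Activin are secreted ligands of the TGF-β family, and their signal is carried to the genes by SMAD2 and SMAD3, which are activated at the receptor and act together with SMAD4. SMAD complexes bind DNA weakly by themselves and are brought to enhancers by partner transcription factors such as FOXH1. In the early embryo the pathway acts with WNT, whose nuclear effectors are the TCF/LEF factors and β-catenin, to specify mesendoderm, the common precursor of mesoderm and endoderm. ATAC-seq measures accessible chromatin by the insertion of sequencing adapters by the transposase Tn5, and distal accessible sites are often enhancers.

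P19 is a mouse embryonic teratoma line that signals through NODAL and GDF3 it makes itself, so that untreated cells stand for chronic signalling. SB-431542, which blocks the kinase of the NODAL/Activin type I receptors, was given at 10 µM, and Activin was given at 20 ng/ml for 1 h or 8 h. Per the study's methods, the cells later given Activin had first been kept overnight in the inhibitor, which was then removed by washing, and the SB-431542 cells went back into inhibitor for 1 h after the same washes. Untreated cells saw neither agent, so they differ from the Activin groups in this inhibitor step as well as in the ligand. The SB-431542 and 1 h Activin cells were taken 1 h after the washes, and the 8 h Activin cells 8 h after them. No such washes are described for untreated cells. The states that are low in the selected set are thus those taken 1 h after the washes. Whether time since the washes had a part in the pattern was not tested. Each state had 2 biological replicates with 100000 cells per transposition, and the authors' lists, 1 per state, merge both replicates. The labels name 48 libraries, 12 per state, each with its biological replicate and a library number within it. How these libraries relate to the samples described in the study's methods is not stated in the sources used here. Because the lists merge the replicates, no spread between replicates can be given for any value. Differences between states are reported as measured in 1 merged list each. The 4 lists held between 209212 and 234758 peaks. The lowest local background in a list, a measure of its relative depth, was 92.6% of that with SB-431542 at 1 h, 79.0% at 8 h and 84.8% in untreated cells. All 7 pluripotency genes examined, among them *Pou5f1*, *Sox2* and *Lin28a*, had a promoter peak in every list. Peaks in every list were also found at the promoters of 4 of 10 blood genes, 5 of 10 muscle genes and 2 of 10 liver genes, and 8 of the 10 liver genes had a promoter peak in no list.

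Sequences at the centre of 4 late-high regions are shown because they hold the motifs that were more frequent in the set than in the other shared regions, as described below. Each is a window of 300 bp around the centre of the highest 8 h Activin peak, on the + strand of mm10. Capitals mark matches, on either strand, to ATCAAAG (TCF/LEF), ATGCAAAT (OCT, the POU factors that include POU5F1), GGATTA (bicoid-type homeodomain factors such as GSC and OTX2) and AGGTGTGA (T-box factors such as EOMES). The window nearest to *Gm38423* (chr4:73531635-73531934) holds a TCF/LEF match at bases 62 to 68. That near *Fzd9*, a WNT receptor gene (chr5:135280323-135280622), holds one at bases 2 to 8, at the edge of the window. The window in *Gm13219* (chr2:9446003-9446302) holds an OCT and a T-box match and belongs to the first of the 15 strong regions described below, and that near *Csn2* (chr5:87711814-87712113) holds a GSC/OTX match.
Gm38423: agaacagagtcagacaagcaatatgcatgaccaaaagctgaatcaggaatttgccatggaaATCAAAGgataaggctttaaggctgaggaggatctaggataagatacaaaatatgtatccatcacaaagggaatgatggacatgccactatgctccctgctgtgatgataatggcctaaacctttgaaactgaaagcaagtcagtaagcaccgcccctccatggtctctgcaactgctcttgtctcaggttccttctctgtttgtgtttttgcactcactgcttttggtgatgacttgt
Fzd9: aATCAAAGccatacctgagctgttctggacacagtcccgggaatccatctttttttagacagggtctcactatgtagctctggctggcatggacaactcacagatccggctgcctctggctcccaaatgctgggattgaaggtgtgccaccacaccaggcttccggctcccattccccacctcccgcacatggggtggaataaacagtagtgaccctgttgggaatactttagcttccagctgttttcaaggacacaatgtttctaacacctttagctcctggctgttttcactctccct
Gm13219: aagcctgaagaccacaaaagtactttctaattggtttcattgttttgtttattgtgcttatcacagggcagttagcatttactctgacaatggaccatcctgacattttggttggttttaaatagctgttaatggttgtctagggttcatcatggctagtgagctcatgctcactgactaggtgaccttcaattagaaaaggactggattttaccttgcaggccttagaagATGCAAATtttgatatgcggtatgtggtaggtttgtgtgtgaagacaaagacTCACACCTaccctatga
Csn2: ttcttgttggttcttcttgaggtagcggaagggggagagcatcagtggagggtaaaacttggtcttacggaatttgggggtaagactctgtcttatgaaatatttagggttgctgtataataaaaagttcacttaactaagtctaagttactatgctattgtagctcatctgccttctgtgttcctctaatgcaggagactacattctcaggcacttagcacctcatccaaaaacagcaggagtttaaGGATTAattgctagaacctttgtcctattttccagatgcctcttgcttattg

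In the late-high regions the median fold enrichment was 2.38 under SB-431542, 2.25 at 1 h, 3.89 at 8 h and 3.65 in untreated cells, whereas over all shared regions the 4 medians lay between 2.49 and 2.67. With the inhibitor they were thus below the middle of the shared regions, at the median percentile 39.8, and at 8 h they stood at percentile 77.9 and in untreated cells at 75.3. Scaled to the median, L was 0.05 at 1 h (quartiles -0.04 and 0.13), 0.67 at 8 h (0.57 and 0.82) and 0.57 in untreated cells (0.46 and 0.73). The largest L(8H) was 2.02 and the largest L(UNT) was 1.65. Among all shared regions, 88.9% met the condition at 1 h, 3.32% that at 8 h and 7.23% that in untreated cells. Of the 5403 regions with an L(8H) of at least 0.5, 3316 also met the condition in untreated cells and 2244 of these that at 1 h. An L(8H) of at least 1 was found in 252 late-high regions, 11.2%, and in 0.317% of the shared regions. Below 0 at 1 h were 749 of the 2244 regions, 33.4%, while 1495 were above 0, against 95154 of the 162505 shared regions. The median L(1H) of 0.05 stood against 0.03 over all shared regions. A higher L in untreated cells than at 8 h was found in 648 late-high regions, 28.9%.

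**Figure D1:**
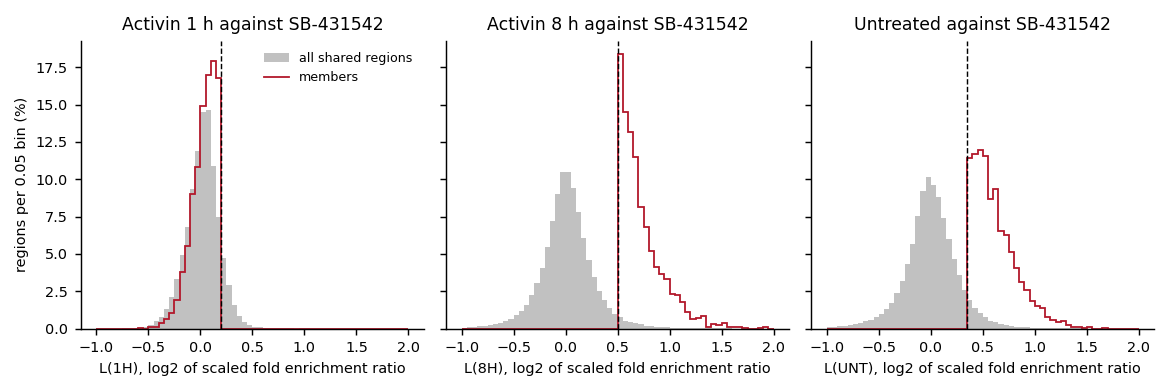
Distribution of L, the log2 ratio of scaled fold enrichment to SB-431542, at 1 h Activin, 8 h Activin and in untreated cells (x axes), as the share of regions in bins of 0.05 (y axis), for all 162505 shared regions (grey) and the 2244 late-high regions (red line, labelled members). Dashed lines are the thresholds of the selection; the shared regions centre near 0 in all 3 comparisons, and the late-high regions pile up against the thresholds with a tail to 2.02 at 8 h.

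Most regions lay near the thresholds. Just inside the 8 h limit was a region near *Six3os1* with an L(8H) of 0.50 and a fold enrichment of 2.84 under SB-431542, 2.63 at 1 h, 3.94 at 8 h and 4.46 in untreated cells. Just outside it was a region near *Ugt2a3* with 2.08, 2.02, 2.88 and 3.22. A region near *Sash1* was just inside the limit in untreated cells with an L(UNT) of 0.35, and a region near *Acvr2a*, a type II Activin receptor gene, was just outside with the values 2.11, 2.04, 2.94 and 2.64. At the 1 h limit, regions near *Mospd1* and *Foxc1* were the nearest inside and outside, each with an L(1H) of 0.20.

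The other scores in the lists were compared because a fold enrichment can be high through a high pileup or a low background. The pileup, estimated from the fold enrichment and the deposited p-value and scaled by its median, was at least as high at 8 h as with SB-431542 in 2237 late-high regions, 99.7%, against 51.2% of the shared regions. It was higher by at least 0.5 on the log2 scale in 93.6% of the late-high regions at 8 h and in 82.9% in untreated cells. Of the shared regions 5.76% and 5.77% met this. At 1 h it was at least as high as with SB-431542 in 66.8% of the late-high and 51.3% of the shared regions. The estimated local background around the late-high regions was also higher. Its scaled value was at or above that with SB-431542 in 85.8% of them at 8 h, against 54.4% of the shared regions. Their median log2 difference was 0.11. In untreated cells these shares were 85.8% and 47.6%, and the median was 0.10. Pileup and background were both solved from the fold enrichment that chose the regions, so they are part of the description. Both estimates treat the signal as even within a peak, and the effect of uneven signal was not examined. In the other late-high regions the scaled background was lower at 8 h than with SB-431542. Peaks were wider at 8 h than with SB-431542 in 68.7% of the late-high regions, against 38.8% of the shared regions, and in 74.8% against 46.6% in untreated cells. With SB-431542 the peak was weak in 507 regions, 22.6%, where its -log10 q was under 5. The lower quartile of this -log10 q was 5.32 in the late-high and 5.83 in the shared regions, so weak peaks were not particular to the set. A -log10 q of at least 20 both at 8 h and in untreated cells was found in 1374 regions, 61.2%. The medians in these states were 29.9 and 27.6, against 10.9 and 11.9 over all shared regions.

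Among these 1374 regions, the 15 with the highest mean of L(8H) and L(UNT) were all distal to promoters, 8 in an intron and 7 between genes. The region with the highest mean lay in an intron of the RNA gene *Gm13219* (chr2:9445730-9447194), with a fold enrichment of 1.74 under SB-431542, 1.82 at 1 h, 6.23 at 8 h and 4.11 in untreated cells. A region in an intron of *Stxbp5*, which encodes the SNARE regulator tomosyn, was the second and had its highest value in untreated cells, at 2.28, 2.31, 5.58 and 7.06 in the same order. The TCF/LEF window near *Gm38423* printed above belongs to the third, 73.8 kb upstream of that gene, with 2.44, 2.30, 6.60 and 6.79. In these 3 regions L(1H) was at most 0.16, and both later states were high.

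An intron of *Wls* (chr3:159926071-159926914), the gene for the membrane protein that carries WNT ligands to the cell surface, held a region 86.8 kb from the transcription start site with a fold enrichment of 2.52 under SB-431542, 2.39 at 1 h, 7.12 at 8 h and 5.24 in untreated cells. The highest values of the 15 were measured 64.0 kb upstream of *Rgs21*, a regulator of G-protein signalling, where 3.62 and 2.99 were followed by 8.89 and 8.44. Regions near *Wdr11* and *A930001A20Rik* were the most one-sided. At *Wdr11* the value was 7.52 at 8 h and 3.73 in untreated cells, and at *A930001A20Rik* it was 8.61 and 3.64, against 2.01 and 2.32 under SB-431542. The *A930001A20Rik* peak was 1586 bp wide under SB-431542, 490 bp at 8 h and 433 bp in untreated cells. An intron of *Palld*, which encodes an actin-associated protein, showed the opposite order, with 4.40 at 8 h and 5.09 in untreated cells. Upstream of the milk protein gene *Csn2*, at 12.5 kb, the values were 2.79, 2.97, 7.60 and 6.60. The other 6, nearest to *Mzt1*, *S100a7l2*, *Klhl32*, *4930567K12Rik*, *St18* and *Gm36470*, had an L(8H) between 1.35 and 1.67.

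**Figure D2:**
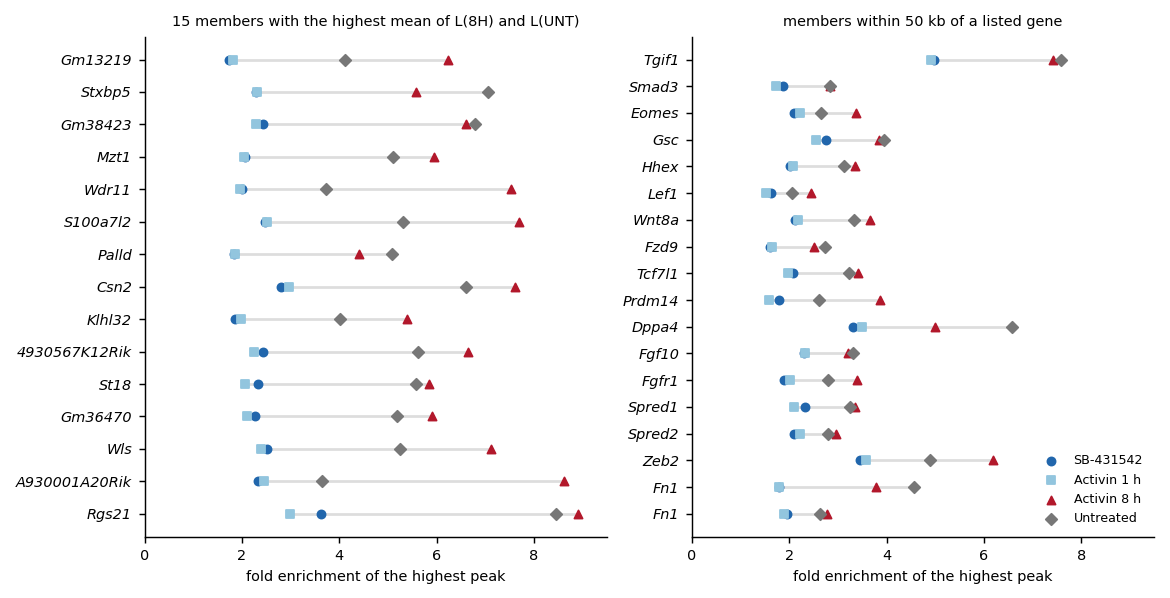
Fold enrichment of the highest peak (x axis) in each of the 4 states for single late-high regions, named by the nearest gene or the listed gene (y axis): the 15 with the highest mean of L(8H) and L(UNT) on the left and those within 50 kb of a listed gene of 7 lists, less 1 that is not reported, on the right. Circles are SB-431542, squares 1 h Activin, triangles 8 h Activin and diamonds untreated cells, each from 1 merged list, and in every row the first 2 states lie to the left of the other 2.

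The late-high regions were almost all distal. A promoter, the stretch from 1000 bp before to 100 bp after a RefSeq transcription start site, was overlapped by 27 of them, 1.20% (95% Wilson interval 0.828 to 1.75%), against 9.99% of the shared regions. Promoter overlap was also low in the other sets whose motifs are compared below, so it was not particular to the late-high regions. It was 1.7% in regions already higher at 1 h, 2.6% in late-low regions and 3.1% in those high at 8 h alone. Introns held 38.3% of the late-high regions against 31.0% of the shared regions, and 59.4% against 56.8% lay between genes. A transcription start site was within 5 kb of 4.81% of them and of 15.1% of the shared regions, and the quartiles of the distance to the nearest one were 23.9 and 187 kb against 12.1 and 179 kb. The widths of the merged regions were close, with medians of 979 and 975 bp, and the GC content of the central 300 bp was 46% against 48%.

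Promoters of protein-coding genes were overlapped by 17 late-high regions, 0.758%, against 9.23% of the shared regions. The highest L(8H) among them was 0.74, at *Gm4788*, with a fold enrichment of 3.63 under SB-431542, 3.56 at 1 h, 5.91 at 8 h and 4.66 in untreated cells. The promoter of *E2f3*, a cell cycle transcription factor, followed with 3.57, 3.52, 5.54 and 4.98. Its scaled pileup differed less, by 0.17 on the log2 scale at 8 h and by -0.17 in untreated cells, while the estimated background, as a pileup of reads, was 236 with SB-431542, 130 at 8 h and 124 in untreated cells and the peak was 3759, 1042 and 1125 bp wide. The other 3 of the 5 with the highest L(8H) were *Arhgef33*, *Vmn2r24* and *Dnd1*, an RNA-binding protein of germ cells, with L(8H) between 0.61 and 0.62. No coding promoter thus reached the L(8H) of 1 that 252 of all late-high regions reached. *Vmn2r24* and the *Vmn1r* genes belong to receptor families with many similar copies, and how uniquely reads map there was not examined.

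**Figure D3:**
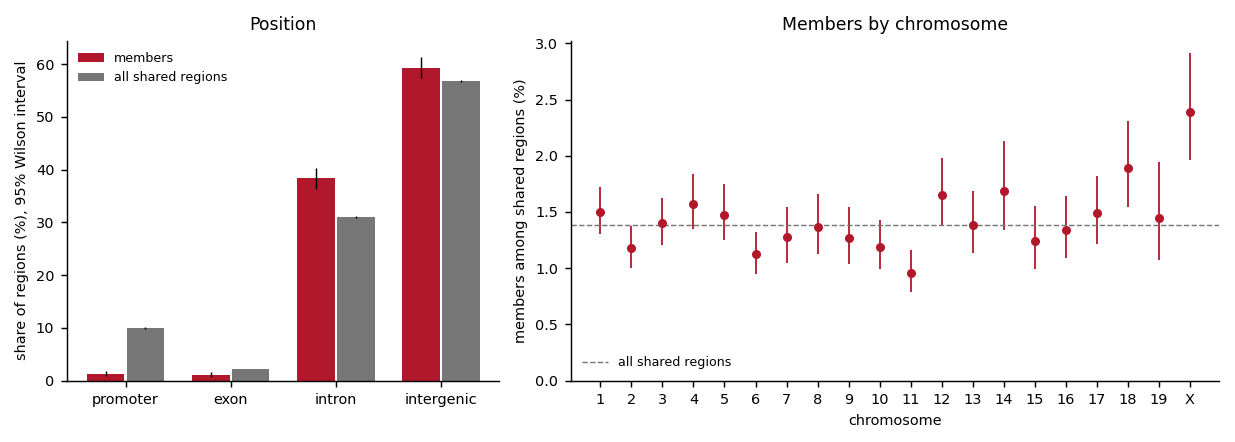
Left, share of the 2244 late-high regions (red, labelled members) and of all 162505 shared regions (grey) that overlap a promoter or lie in an exon, an intron or between genes, with 95% Wilson intervals. Right, late-high regions as a share of the shared regions of each chromosome (points, 95% Wilson intervals), with the genome-wide 1.38% as a dashed line; chromosome X is highest at 2.39% and chromosome 11 lowest at 0.956%, and chromosome Y, with 37 shared regions, is left out.

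The share of shared regions that were late-high ranged over the autosomes from 0.956% on chromosome 11 (interval 0.790 to 1.16%) to 1.89% on chromosome 18 (1.55 to 2.31%). On chromosome X it was 2.39% (1.96 to 2.92%), or 94 of 3932 regions. The median L(8H) of all shared regions of chromosome X was 0.01, the same as over all shared regions to this precision. These intervals cover counting error alone and treat neighbouring regions as independent.

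Genes of the NODAL/Activin pathway and of the fates it controls were examined next. Within 50 kb of a transcription start site of any RefSeq gene, 937 of 81293 shared regions were late-high, 1.15%. Around the 103 genes of the mesendoderm, NODAL/Activin and WNT lists together the count was 10 of 878, 1.14%, which is the share around any gene. All lists were chosen with earlier results of these data known.

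By list, 4 of 157 shared regions around 20 mesendoderm genes were late-high, 2.55%, and 3 of them are described here. Upstream of *Eomes*, the T-box factor of early mesendoderm, the region at 21.0 kb (chr9:118456077-118458352) had a fold enrichment of 2.10 under SB-431542, 2.22 at 1 h, 3.37 at 8 h and 2.65 in untreated cells, and was the only late-high one of the 11 shared regions within 50 kb of the gene. Near *Gsc*, a homeobox gene of the organiser, the values were 2.76, 2.55, 3.84 and 3.95. A region 34.2 kb from *Hhex*, a homeobox gene of anterior endoderm, had 2.01, 2.07, 3.35 and 3.13. It lay in an intron of *1700122C19Rik*, 3.79 kb from the start site of that gene. Of these 3 regions the *Eomes* one was the lowest in untreated cells relative to SB-431542, with an L(UNT) of 0.37, close to the limit of 0.35, while its scaled pileup was higher by 1.76 on the log2 scale at 8 h and by 0.58 in untreated cells.

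Around 23 NODAL/Activin targets and feedback genes, 2 of 224 regions were late-high, 0.893%, one 47.4 kb upstream of *Tgif1*, a SMAD corepressor, and one 28.7 kb upstream of *Smad3*. The *Tgif1* region, which was nearer to *Mir1195*, at 40.3 kb, was open in every state. Its values were 4.98 under SB-431542, 4.91 at 1 h, 7.41 at 8 h and 7.59 in untreated cells. The *Smad3* region was weaker, with 1.87, 1.73, 2.83 and 2.83. No late-high region lay within 50 kb of the other 21 genes of this list.

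For WNT, 1 of 189 regions around 21 target genes and 3 of 308 around 39 ligand, receptor and TCF/LEF genes were late-high, 0.529% and 0.974%. An intron of *Lef1*, itself a nuclear effector of WNT, held a weak one 3.72 kb from the start site, with 1.62, 1.52, 2.44 and 2.05. Downstream of *Wnt8a*, a WNT ligand gene of the primitive streak, a region at 8.48 kb had 2.13 under SB-431542, 2.17 at 1 h, 3.65 at 8 h and 3.33 in untreated cells. Its peak was 3419 and 3445 bp wide in the first 2 states, and 467 and 821 bp in the other 2. These values thus come from peaks of unlike width. The *Lef1* peak was 1380 bp wide under SB-431542 and 326 bp at 8 h. Regions near the receptor gene *Fzd9* and in an intron of *Tcf7l1*, a TCF factor that mainly represses, had an L(8H) of 0.68 and 0.74. The *Tcf7l1* region was less clear by its scaled pileup, which was higher by 0.35 on the log2 scale at 8 h and by 0.19 in untreated cells. Of these 4 regions the *Fzd9* one held a TCF/LEF match in the central window, as printed above.

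Around 20 pluripotency genes 2 of 185 regions were late-high, 1.08%, near *Prdm14* and *Dppa4*. The *Prdm14* region had 1.79, 1.58, 3.87 and 2.62, and that of *Dppa4* was highest in untreated cells, with 3.32, 3.49, 4.99 and 6.58. Of the FGF and ERK feedback list 4 of 174 regions were late-high, 2.30%, 1 each in introns of *Fgf10*, *Fgfr1*, *Spred1* and *Spred2*. The highest share was that of the cadherin and EMT list, 3 of 87 regions or 3.45%, against 1.15% around any gene. It rests on 2 regions around *Fn1*, the fibronectin gene, and 1 upstream of *Zeb2*, a repressor of E-cadherin. One of the *Fn1* regions, 39.0 kb upstream, was nearest to *Apol7d*, at 38.9 kb. In the *Fn1* intron the fold enrichment was 1.79 under SB-431542, 1.78 at 1 h, 3.79 at 8 h and 4.57 in untreated cells. Upstream of *Zeb2* it was 3.45, 3.59, 6.18 and 4.90.

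The remaining lists rest on 0 to 2 late-high regions each, against 1.15% of the shared regions around any gene. For BMP genes it was 2 of 161 regions or 1.24% (near *Smad6* and *Chrd*), and for TEAD and YAP targets 2 of 129 or 1.55% (*Lats2* and *Tead4*). For neural genes it was 1 of 140 or 0.714% (*Pou3f2*) and for housekeeping genes 2 of 139 or 1.44%. The *Chrd* region lay in an intron of *Fam131a*, 5.26 kb from the start site of that gene, and the *Pou3f2* region was nearer to *Gm30731*, at 41.7 kb. Among the lists of other tissues 2 of 97 regions around blood genes were late-high, 2.06%, both at *Ptprc*, 1 of 60 around liver genes, 1.67%, and 0 of 86 around muscle genes. The housekeeping, blood and liver shares were above those of the NODAL/Activin, WNT and pluripotency lists. Around AP-1 and immediate early genes none of 162 shared regions was late-high, and a count of 0 there allows a share of up to 1.85%. The median L(8H) of the shared regions around each list lay between -0.07 and 0.02, against 0.01 over all shared regions.

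Exact motif matches were counted on both strands in the central 300 bp. Of the 22 motifs reported here, TCF/LEF, ESRRB, OCT and GRHL had the highest ratios of the late-high to the shared share. These ratios were close, at 2.06, 2.04, 2.01 and 2, and that of GRHL rests on 4 late-high regions. TCF/LEF was found in 231 late-high regions, 10.3% (9.10 to 11.6%), and in 4.99% of the shared regions. It was found at least 2 times in 13 of them, 0.579% against 0.144%. Among the distal shared regions, which match the late-high regions more closely in position, a TCF/LEF match was present in 5.30%. There ESRRB matched in 1.11%, OCT in 3.07% and GRHL in 0.084%, so TCF/LEF did not stand apart from these motifs.

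Several other motifs were also more frequent in the late-high regions. The shares in late-high and shared regions were 5.75% and 2.86% for OCT, 2.14% and 1.05% for ESRRB (TCAAGGTCA), an orphan nuclear receptor of pluripotent cells, and 19.1% and 11.5% for GSC/OTX. Forkhead factors (FOX, GTAAACA) matched in 7.35% and 4.24%, T-box factors in 2.36% and 1.30%, and the SNAI/ZEB repressors (CAGGTG) in 29.4% and 21.0%. The E-box CAGCTG was found in 23.2% and 18.3%. At least 1 of TCF/LEF, OCT and GSC/OTX was present in 709 late-high regions, 31.6% (29.7 to 33.5%), and in 18.3% of the shared regions.

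The SMAD motifs were not more frequent. The SMAD core motif TGTCTG was found in 27.1% of the late-high regions (25.3 to 29.0%) and 27.3% of the shared regions, the palindrome GTCTAGAC in 3 regions or 0.134% against 0.276%. FOXH1 (AATCCACA) matched in 1.83% (1.35 to 2.47%) against 1.23% (1.18 to 1.29%), which is a ratio of 1.48. Less frequent than in the shared regions were AP-1 (TGANTCA), at 6.55% against 9.63%, KLF (GGGTGTGG), at 1.69% against 2.82%, SP (GGGGCGGGG), at 0.936% against 2.62%, and ETS (CCGGAAGT), at 0.134% against 0.691%. SP and ETS motifs are typical of promoters, and among distal shared regions their shares were 1.48% and 0.309%. CTCF (CCANNAGGG) was found in 6.51% against 7.89%, TEAD (CATTCCA) in 4.32% against 5.04%, SOX (CCATTGTT) in 1.51% against 1.62% and STAT (TTCCNGGAA) in 1.02% against 0.857%. Motifs of GATA factors (AGATAAG), CDX (TTTATNGC) and GRHL (AACCGGTT) matched in 5.44%, 3.52% and 0.178% of the late-high regions and in 4.07%, 2.50% and 0.089% of the shared regions.

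**Figure D4:**
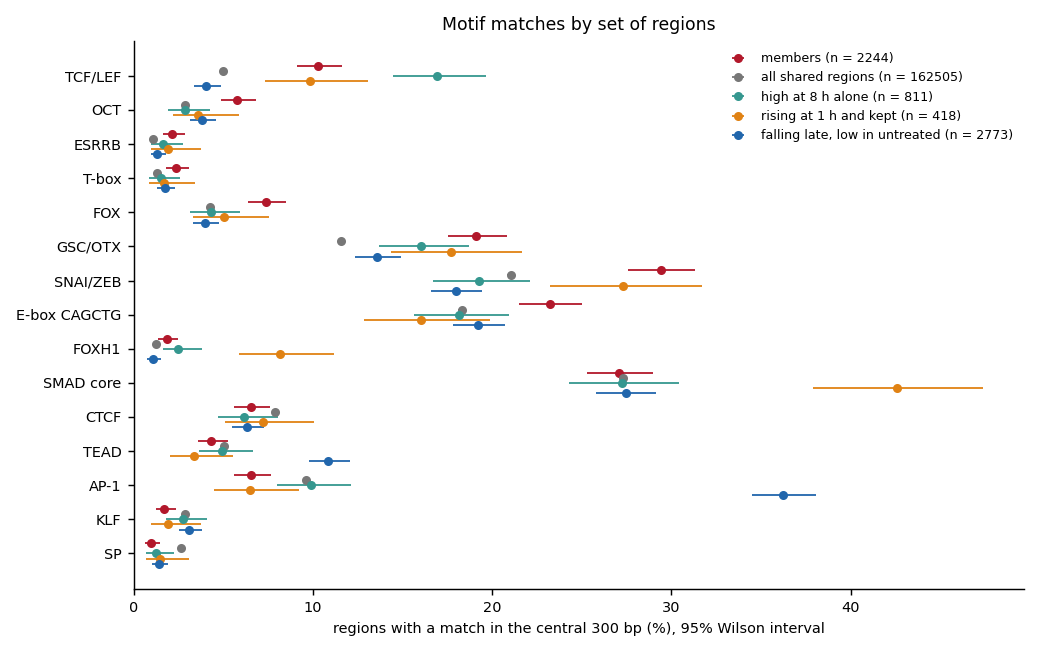
Share of regions with an exact motif match in the central 300 bp (x axis, points with 95% Wilson intervals) for 15 motifs (y axis) in 5 sets of regions: late-high (red, labelled members), all shared regions (grey), high at 8 h alone (teal), already higher at 1 h (orange) and late-low (blue). TCF/LEF is high in the red, teal and orange sets, the SMAD core motif and FOXH1 stand out in the orange set, and AP-1 reaches 36.2% in the blue set.

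The motifs were compared with those of 3 other sets cut from the same shared regions by limits on the same L values. The 418 regions that were already higher at 1 h, with an L(1H) of at least 0.35, and stayed so, held the SMAD core motif in 42.6% (37.9 to 47.4%), the SMAD palindrome in 2.63% and FOXH1 in 8.13% (5.88 to 11.2%), each above the share in the late-high regions with intervals that did not overlap. Their TCF/LEF share of 9.81% (7.31 to 13.0%) had an interval that overlapped that of the late-high regions. So did their shares of OCT, 3.59% (2.19 to 5.84%), FOX, 5.02% (3.31 to 7.56%), SNAI/ZEB, 27.3% (23.2 to 31.7%), and GSC/OTX, 17.7% (14.3 to 21.7%). In the 811 regions that were high at 8 h and not in untreated cells, with an L(UNT) below 0.2, TCF/LEF was found in 16.9% (14.5 to 19.6%), above the late-high regions. OCT, at 2.84% (1.90 to 4.22%), FOX, at 4.32% (3.12 to 5.94%), and SNAI/ZEB, at 19.2% (16.7 to 22.1%), were each lower there than in the late-high regions. GSC/OTX, at 16.0% (13.7 to 18.7%), had an interval that overlapped theirs. The mirror set of 2773 late-low regions, with all limits reversed, held AP-1 in 36.2% and TEAD in 10.9%, and TCF/LEF in 4.04%. No test was run between these sets.

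Within the late-high regions the motif shares were compared across 3 groups of 748 regions ranked by the mean of L(8H) and L(UNT). TCF/LEF was found in 9.09% of the lowest, 9.22% of the middle and 12.6% of the highest group (10.4 to 15.1%), and GSC/OTX in 17.2%, 17.5% and 22.6%. For both motifs the intervals of the lowest and the highest group overlapped. At least 1 of TCF/LEF, OCT and GSC/OTX was found in 28.2% of the lowest group (25.1 to 31.5%). In the highest group the share was 36.2% (32.9 to 39.7%), and these intervals did not overlap. They cover counting error alone and treat regions as independent. The motifs were chosen with earlier results of these data known, and the ranking used values that also chose the regions. A relation between motif share and L was thus not tested. In introns and between genes TCF/LEF was found in 9.07% and 11.1%, with overlapping intervals.

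Matches were counted by their distance from the centre of the 8 h peak in bins of 50 bp. In the late-high regions OCT was most frequent at the centre, with 1.25 and 1.29 matches per 100 regions in the 2 central bins and 0.802 and 0.624 in the outermost bins. Over all shared regions the central bins held 0.638 and 0.644 and the outermost bins 0.399 and 0.394. GSC/OTX reached 4.68 in the bin from the centre to 50 bp and had its lowest value, 3.03, in an outermost bin. TCF/LEF matches were spread more evenly, from 1.52 to 2.18 per 100 regions, against 0.806 to 0.882 over all shared regions. FOX matches reached 1.56 per 100 late-high regions and lay between 0.695 and 0.749 over all shared regions. These bins rest on 14 to 105 matches in the late-high regions.

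**Figure D5:**
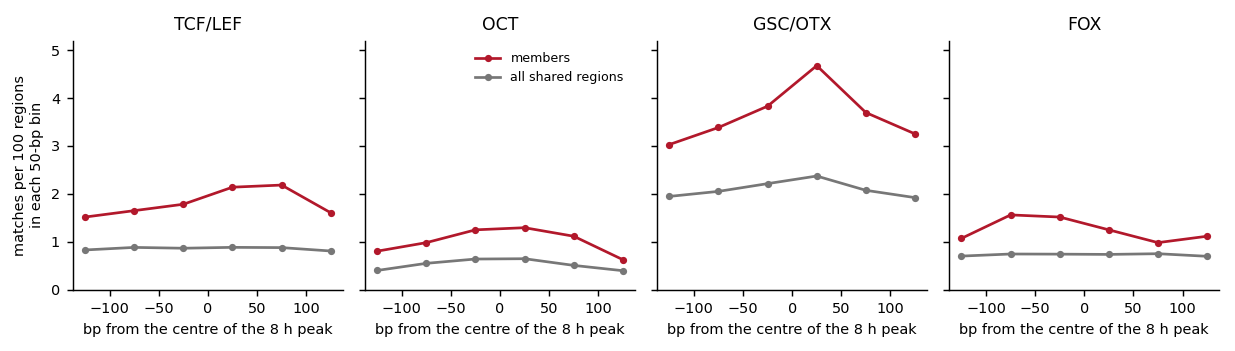
Motif matches per 100 regions in bins of 50 bp (y axis) by distance from the centre of the highest 8 h Activin peak (x axis) for TCF/LEF, OCT, GSC/OTX and FOX in the late-high regions (red, labelled members) and all shared regions (grey). GSC/OTX matches reach 4.68 per 100 late-high regions next to the centre, and TCF/LEF matches lie, between 1.52 and 2.18.

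The late-high regions were scattered over many genes. They were nearest to 1769 genes, 1433 of which had exactly 1, and 9 genes were nearest to 5 or more. *Cntnap5a*, a gene of a neural cell adhesion family, was nearest to 10 late-high regions, out of 230 shared regions nearest to it. Another late-high region lay less than 50 kb away from 273 of them, 12.2%, compared with 13.3% of the late-low regions, 3.70% of the 811 regions high at 8 h alone and 2.39% of the 418 regions already higher at 1 h. The sets differ in size, so these shares are not comparable as densities. In all, 131 runs of 2 or more late-high regions under 50 kb apart were found.

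The longest runs held 4 regions each. One, of 102 kb on chromosome 8, lay in *Unc5d*, a netrin receptor gene, where 4 of 8 shared regions were late-high with L(8H) from 0.51 to 1.22. The other spanned 81.8 kb on chromosome 13 at the pheromone receptor genes *Vmn1r207* and *Vmn1r208*, again with 4 of 8 shared regions and L(8H) from 0.52 to 0.99. The 3 shortest runs of 3 were found in *Bmpr1b*, a type I BMP receptor gene, with 3 of 7 shared regions in 31.5 kb, near *Gm31583*, with 3 of 4 in 26.4 kb, and near *Brinp1*, with 3 of 5 in 33.0 kb. In these 5 runs late-high regions thus made up between 3 of 7 and 3 of 4 of the shared regions, against 1.38% of the shared regions of the genome, but the runs were picked for their number of late-high regions.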

How the data were processed

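According to the study's methods, the authors used cutadapt 1.9.1 for trimming and BWA 0.6.2 for alignment to the mm10 build, filtered out mitochondrial, discordant and ambiguous pairs, and pooled the 2 replicates of each state before MACS2 2.1.1.20160309 called broad peaks, with each read extended around its cut site and no control library. The deposited lists give each peak a fold enrichment, the ratio of pileup to local background, and -log10 p and -log10 q values computed by the authors' peak caller. These scores describe peaks within a list and measure no difference between states. No read counts were among the files analysed, so the depth of each list was estimated here in relative terms alone. The study's methods give a range of reads for the merged samples, without a value for each state.

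The lists were read with Python 3.11.15 and pandas 2.3.3, merged and filtered as described above. The pileup and background of each peak were estimated by solving the Poisson tail for the deposited -log10 p and fold enrichment. Regions were annotated with 45756 RefSeq transcripts of 26180 genes, and sequences were read from the GRCm38.p6 (mm10) genome with pysam 0.24.0. Intervals are 95% Wilson intervals, cover counting error alone and are no test. The selection was tested on simulated lists. The background estimate was tested on simulated Poisson values of single positions, not on whole peaks with uneven signal. Alternatives changed the merging, thresholds, scaling, measure and windows.

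The members, gene lists, motifs and comparison sets were chosen with earlier results of these data known. Regions named are the 15 with the highest mean L among those with -log10 q of at least 20, those within 50 kb of listed genes, those nearest the thresholds, the top coding promoters and the longest runs. The values of 1 motif, 1 marker gene and 1 region near a listed gene are not reported here.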

Additional observations from a re-analysis of the deposited data

How the results depend on the processing

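The 2244 late-high regions became 1458 when the peaks of each list had to cover at least 50% of the region, 588 with an L(8H) of at least 0.75 and an L(UNT) of at least 0.5, 3911 when the estimated pileup replaced the fold enrichment and 8729 with the -log10 p. Of the 2244, 77.6% were also found with the pileup and 53.8% with the -log10 p, and they made up 44.5% and 13.8% of the regions found. Without scaling by the median 83.8% were found, and with scaling over all peaks 69.4%. The median L(8H) of 0.67 became 0.71 with the pileup, 0.88 with the -log10 p and 0.93 with the stricter limits. The distal share of 98.8% moved to 99.3% with scaling over all peaks, 97.9% with the -log10 p, 99.7% with the stricter limits and 99.2% by the region centre. The TCF/LEF share of 10.3% moved to 9.10% with the pileup, which adds regions, 7.08% with the -log10 p and 14.5% with the stricter limits. In the central 200 bp it was 7.40%, against 3.33% of the shared regions, and in the whole region 26.6%, against 17.4%. The share near listed mesendoderm, NODAL or WNT genes, 0.446%, was 0.0891% within 10 kb. Except for the windows and distances, the cause of these shifts was not tested. The other alternatives merged within 200 bp, required a -log10 q of at least 5 or 1 peak per list, or took a width-weighted mean. They left the 5 results within 1.5 times the count or the interval of the reported value. The -log10 q limit still lowered the count to 1548, and 64.9% of the 2244 were found with it. With the 50% cover 60.3% were found. All peaks were on assembled chromosomes.

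No paired analysis was possible because the lists merge both replicates of a state. With 1 list per state, the difference between any of the states has no replicate check, and the relative depth of 79.0% to 92.6% of the SB-431542 list limits weak peaks, which can be missing from the shared regions altogether.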

Other observations

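Words of 8 letters were counted, on both strands, in the central 300 bp of the late-high regions and of the other distal shared regions. This count was added after the data had been seen, and the words named are among those with the highest ratio of the 2 shares that were present in at least 40 late-high regions. The highest ratio was that of GGTGCTAA, which was found in 61 late-high regions, 2.72%, against 0.707% of the other distal regions, 0.433% of the late-low regions and 0.239% of those already higher at 1 h. Next came AGGTGTTA, at 2.45% against 0.701%, and GGTGTTAA, at 2.23% against 0.642%, which share GGTG and TA with it and were not among the motifs searched. The *Csn2* window printed above holds GGTGCTAA on the other strand, as TTAGCACC. CAAGGTCA, which holds most of the ESRRB motif, was found in 7.04% against 2.83%. CATCAAAG, which contains the TCF/LEF motif, was found in 3.97% against 1.39%.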
